A study of Mus musculus with 3 samples.

Results

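The 10 genes described here encode 3 groups of RNA-binding splicing regulators, namely the muscleblind-like genes Mbnl1, Mbnl2 and Mbnl3, the Celf genes Celf1 to Celf6, and Quaking (Qk). They were found among 26839 named genes as the rows whose alias list held the current symbol or an older one (Cugbp1, Cugbp2, Tnrc4, Brunol4, Brunol5 and Brunol6), which gave 11 rows for the 10 genes. RNA had been taken from mouse CAD cells, a catecholaminergic neuroblastoma line grown in culture, 72 h after transfection with control siRNAs, with siRNAs against Ptbp1, or with siRNAs against Ptbp1 and Ptbp2 together. Each group is 1 library, so no difference has a replicate check and no p-value is given. The last pair of libraries are called the Ptbp1 knockdown and the double knockdown below, and values for 3 libraries follow the order control, Ptbp1 knockdown, double knockdown. All libraries, the control included, came from cells transfected with siRNAs of the same make by the same lipid reagent. They are bulk RNA, in which fewer cells of a type and less RNA per cell cannot be told apart.

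Muscleblind-like proteins are zinc-finger proteins that bind GC-containing pyrimidine-rich elements in pre-mRNA and promote splicing patterns typical of mature tissue. They are best known from myotonic dystrophy, in which expanded CUG repeats sequester them. Celf proteins bind GU-rich RNA through RNA recognition motifs, act on splicing in the nucleus and on decay and translation of mRNA in the cytoplasm, and oppose muscleblind-like proteins on a number of exons. Quaking is a protein of the STAR family, with a KH domain that recognises ACUAA-type elements, and is known for its part in myelinating glia and in muscle. Ptbp1 and Ptbp2, the targets of the siRNAs, encode polypyrimidine tract binding proteins, a further family of splicing regulators.

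The reads were short, at 36 bases, and the members are paralogues, so the sequences were compared first. No 32-base word of the annotated exons was shared between members of 1 family, and the only words shared at all were 4 held by both Celf6 and Qk. These words were taken within single annotated exons, so none across a splice junction was compared. Bases counted outside the annotation were not compared either. The exonic lengths deposited with the reads for Mbnl1 and Mbnl2 were 8972 and 8858 bases, against 5644 and 4564 annotated. The longest identical run in the coding sequences was 26 bases between Mbnl1 and Mbnl2, 23 bases between Celf1 and Celf2 and 31 bases between Celf5 and Celf6. The windows below, each as long as 1 read, hold these runs, and capitals mark the bases at which the paralogues differ.
Mbnl1: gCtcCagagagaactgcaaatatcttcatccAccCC
Mbnl2: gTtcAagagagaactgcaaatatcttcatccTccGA
Celf1: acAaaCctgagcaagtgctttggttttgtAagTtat
Celf2: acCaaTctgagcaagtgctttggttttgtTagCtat
Celf5: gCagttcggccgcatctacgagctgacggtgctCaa
Celf6: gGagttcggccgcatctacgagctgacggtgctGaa
The Mbnl windows lie in 1 coding exon each, at chr3:60399523-60399558 and chr14:120778379-120778414 of mm9 (both plus strand), and differ at 5 bases. The Celf1 and Celf2 windows cross a splice junction and differ at 4 bases. They run from position 90852978 to 90853408 of chromosome 2 for Celf1 (plus strand) and from 6468246 to 6470899 for Celf2 (minus strand). The Celf5 and Celf6 windows lie in 1 coding exon each, at chr10:80945232-80945267 (minus strand) and chr9:59426385-59426420 (plus strand), and differ at 2 bases. Words that also occurred elsewhere in the genome made up 5.37% of the exon words of Qk, 5.07% of Mbnl3, 3.5% of Celf4 and 1.6% or less of the other members. Of the annotated exon bases, exons of other genes covered 8.14% for Celf5 (Gm16105), 1.88% for Mbnl2 and 1.6% for Celf2, and none for the others. The preparation described does not mark strand, so reads over these bases cannot be assigned to either gene.

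The labels were checked on the targeted genes. Ptbp1 had 471 CPM against 87.5 and 106 in the knockdowns. CPM here gives the reads of a gene relative to the reads of all genes used in its library, scaled between libraries. Ptbp2 had 51.4, 179 and 44.3 CPM, so that its RNA in the double knockdown lay far below the Ptbp1 knockdown but close to the control. The libraries held 16011466, 16899549 and 14242495 reads in gene clusters. Whether a read or a read pair was counted is not given in the sources used here. Neuronal and catecholaminergic markers matched the label of the cells. All 9 neuronal markers reached 1 CPM, with a summed level of 2656 to 2934 CPM over the libraries, as did all 9 catecholaminergic ones, at 1607 to 1908 CPM. Of the latter, Dbh and Phox2a were called higher in the double knockdown by the rule given below, with log2 differences of 1.21 and 1.04. Of all genes tested there, 1.07% were called higher. The list went both ways, with 5 of 9 above 0 and Slc18a1 at -0.88, Ddc at -0.26 and Th at -0.23. Glial cells, in which Quaking is abundant, were nearly absent by their markers, with a summed 1.4 to 2.62 CPM for 7 astrocyte genes and 3.99 to 6.89 CPM for 8 oligodendrocyte and Schwann cell genes. Gja1, Slc1a3 and Olig2 had no read in any library. Muscle markers summed to 18.9, 27.1 and 23.2 CPM, fibroblast markers to 16.7, 16.1 and 10.7, and blood and endothelial markers to 22.9, 17.3 and 12.2 over the libraries. The fibroblast marker Col1a1 was called lower in the double knockdown (-1.04), where 2.71% of all genes tested were called lower. The part of other cells in the differences below was not tested.

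CAD cells expressed 9 of the 10 genes at 10 CPM or more, and Celf3, a member found mainly in the nervous system, was by far the most abundant per length. In the control library Celf3 stood at 60.7 CPM per kilobase of exon (95% counting interval 58.8 to 62.8), above 89.8% of the genes with at least 1 CPM. Celf1, the broadly expressed founder of the family, followed at 26.4 CPM per kilobase (25.2 to 27.7). Celf6, Mbnl2, Celf4, Qk and Mbnl1 formed a middle group at 13.1, 12.5, 10.6, 9.50 and 8.92 CPM per kilobase. Celf5 was lower at 3.06 and Celf2 lower still at 0.791 CPM per kilobase. Neighbours in this order were separated by more than counting error, apart from Celf6 and Mbnl2 (ratio 1.05, interval 0.956 to 1.16) and Qk and Mbnl1 (1.06, 0.986 to 1.15). In the Ptbp1 knockdown Celf4 stood above Mbnl2, and Mbnl1 and Qk were not separated (1.05, 0.969 to 1.14). In the double knockdown Celf4 and Celf6 (1.04, 0.925 to 1.17) and Celf6 and Mbnl2 (1.11, 0.994 to 1.24) were not separated. Intervals here and below are exact, cover counting error only and say nothing of the spread between cultures. They may be too narrow even for that, since amplified reads are not independent molecules. The order also rests on the exonic lengths deposited with the reads, which for several members differ from the annotated exon bases. Mbnl2 had 8858 bases against 4564 annotated, Mbnl1 8972 against 5644, Celf3 3848 against 2744 and Celf6 2946 against 3621. Celf1 had 4190 against 8446, the latter with the second row described below. Celf4 had 5233 against 3998 and Celf2 14331 against 12268. Mbnl3, Celf5 and Qk differed little. The order with annotated lengths was not tested.

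**Figure D1:**
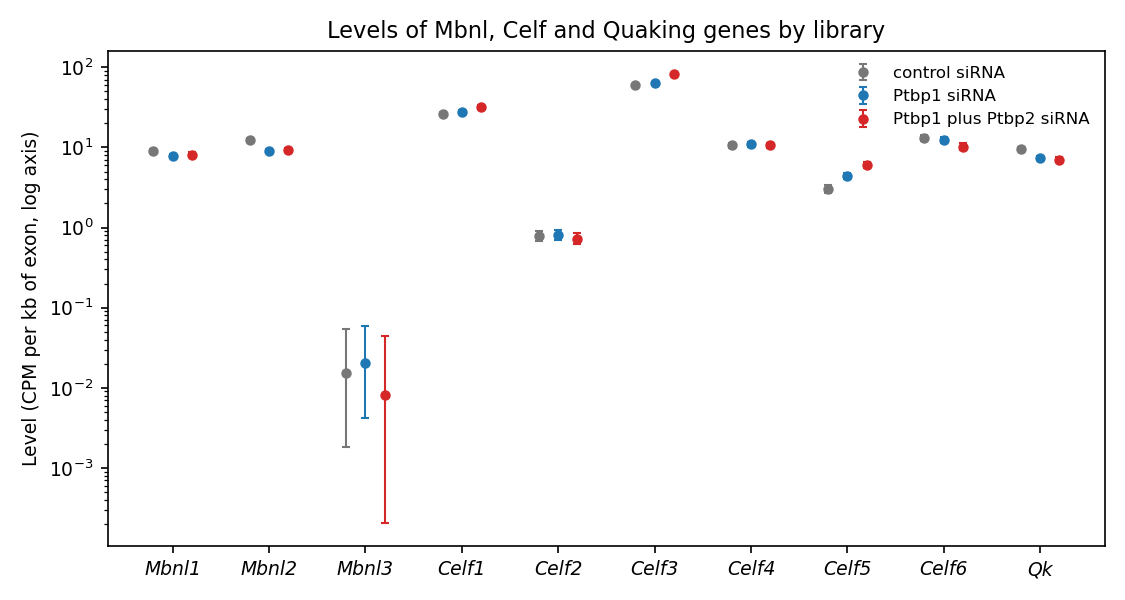
Level of each gene in each of the 3 libraries, in CPM per kilobase of exon on a log axis, with points for single libraries and bars for 95% counting intervals. Celf3 and Celf1 stand highest in each library, Celf5 goes from 3.06 to 4.39 and 5.98, and Mbnl3 rests on 1 to 3 reads.

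Mbnl3, the X-linked muscleblind gene (chromosome X, 48466672 to 48559010), was at the edge of detection, with 2, 3 and 1 reads. Those values lie at or below the limit of 3 reads (0.197, 0.177 and 0.210 CPM in the libraries), so no fold is given for it. It did not reach the 1 CPM needed to be tested, which leaves 9 of the 10 members in each comparison.

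Size calls asked for a difference of 2-fold or more on log2(CPM + 1) values, at least 1 CPM in the higher library and a counting interval of the ratio that left out 1. In the Ptbp1 knockdown 0 of 9 members met this rule against the control, where 0.738% of all genes tested did (0.279% higher and 0.459% lower). In the double knockdown 0 of 9 met it, against 3.78% of all genes (1.07% higher and 2.71% lower). Between the knockdowns 0 of 9 met it, against 0.45% (0.105% higher and 0.345% lower). Against such background shares a count of 0 among 9 genes is no result about the members. Their differences were smaller than 2-fold and went both ways, and the values of each follow. Differences are on the log2(CPM + 1) scale, and folds are ratios of CPM without the added 1.

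Celf5, the member with the largest difference (older symbol Brunol5, chromosome 10, 80921981 to 80945430, minus strand), encodes a Celf protein found mainly in the brain. It had 299, 477 and 547 reads, or 19.6, 28.1 and 38.3 CPM. The control library was the lowest and the double knockdown the highest. It was 1.43-fold above the control in the Ptbp1 knockdown (1.24 to 1.66) and 1.96-fold in the double knockdown (1.70 to 2.26). On the log2 scale these were differences of 0.50 and 0.93, and 4.7% and 1.51% of all genes tested lay higher still. Between the knockdown libraries Celf5 was 1.36-fold higher in the double knockdown (1.20 to 1.54), a log2 difference of 0.43. It was the 1 member of 9 past 1.5-fold in the double knockdown, where 7.26% of all genes tested were that much higher and 10% that much lower. No member was past 1.5-fold in the Ptbp1 knockdown, where 3.0% of all genes were that much higher and 3.47% lower, or between the knockdowns, where 1.84% were higher and 3.59% lower. The next gene above Celf5 by level per length was Mbnl1 in the control library, by 2.92-fold (2.57 to 3.32), and Qk in the double knockdown, by 1.18-fold (1.06 to 1.31). Celf5 is also the member with the most exon bases in common with another annotated gene, and the part of Gm16105 in its reads was not tested.

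Celf3 (older symbol Tnrc4, chromosome 3, 94282256 to 94296116) had 3568, 4163 and 4505 reads, or 234, 245 and 315 CPM. The control and Ptbp1 knockdown libraries lay close together and the double knockdown stood above them. It was 1.05-fold above the control in the Ptbp1 knockdown (1.003 to 1.10), 1.35-fold in the double knockdown (1.29 to 1.41) and 1.29-fold higher in the double knockdown than in the Ptbp1 knockdown (1.23 to 1.34). The last difference, 0.36 on the log2 scale, was exceeded by 7.37% of all genes tested. Library-total scaling gave 1.10-fold for the first of these ratios (1.05 to 1.15).

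Celf1 (older symbol Cugbp1) was represented by 2 rows. The row with more reads (chromosome 2, 90780616 to 90857211) had 1692, 1994 and 1932 reads, or 111, 117 and 135 CPM, and the double knockdown was again the highest. It was 1.06-fold above the control in the Ptbp1 knockdown (0.993 to 1.13), 1.22-fold in the double knockdown (1.14 to 1.30) and 1.15-fold higher in the double knockdown than in the Ptbp1 knockdown (1.08 to 1.23). With library-total scaling the first interval moved above 1 (1.04 to 1.19).

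None of the other Celf members was above the control in the double knockdown by more than counting error. Celf6 (older symbol Brunol6, chromosome 9, 59426145 to 59455100), also a gene of the nervous system, had 590, 616 and 432 reads, or 38.6, 36.3 and 30.2 CPM. It was lowest in the double knockdown, 1.28-fold below the control (1.13 to 1.45) and 1.20-fold below the Ptbp1 knockdown (1.06 to 1.36). Celf4 (older symbol Brunol4, chromosome 18, 25637617 to 25912659) is expressed in neurons and known for its link to seizures in mice. It had 847, 970 and 799 reads, or 55.5, 57.1 and 55.9 CPM, and its ratios of 1.03 (0.938 to 1.13) and 1.01 (0.914 to 1.11) to the control had intervals that held 1. Celf2 (older symbol Cugbp2, chromosome 2, 6460745 to 7317826), the paralogue closest to Celf1, had 173, 196 and 149 reads, or 11.3, 11.5 and 10.4 CPM. Its ratios to the control were 1.02 (0.826 to 1.26) and 0.921 (0.735 to 1.15), and with so few reads a difference of that size was not detectable.

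The control library was the highest of the 3 for Mbnl2 and Qk, with the knockdowns close to each other. Mbnl2, the muscleblind gene of most weight in the brain (chromosome 14, 120674892 to 120830921), had 1686, 1375 and 1167 reads, or 110.4, 81.0 and 81.7 CPM. It was 1.36-fold below the control in the Ptbp1 knockdown (1.27 to 1.47) and 1.35-fold in the double knockdown (1.25 to 1.46). Between the knockdown libraries its ratio was 1.01 (0.933 to 1.09). Its log2 differences from the control were -0.44 and -0.43, and 7.5% and 16.6% of all genes tested lay lower.

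Qk (chromosome 17, 10399417 to 10512720, minus strand) had 1430, 1230 and 992 reads, or 93.7, 72.4 and 69.5 CPM. The control library was the highest. Qk was 1.29-fold below the control in the Ptbp1 knockdown (1.20 to 1.40) and 1.35-fold in the double knockdown (1.24 to 1.46), and its ratio between the knockdown libraries was 0.959 (0.881 to 1.04). The log2 differences from the control were -0.37 and -0.43, with 10.8% and 16.8% of all genes tested lower.

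Mbnl1, the muscleblind gene of most weight in muscle (chromosome 3, 60277033 to 60433671), had 1222, 1176 and 1046 reads, or 80.0, 69.3 and 73.2 CPM. It was 1.16-fold below the control in the Ptbp1 knockdown (1.07 to 1.25) and 1.09-fold in the double knockdown (1.005 to 1.19). The second of these rested on the scaling, since the interval of the ratio held 1 with library totals (0.959, 0.882 to 1.04).

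**Figure D2:**
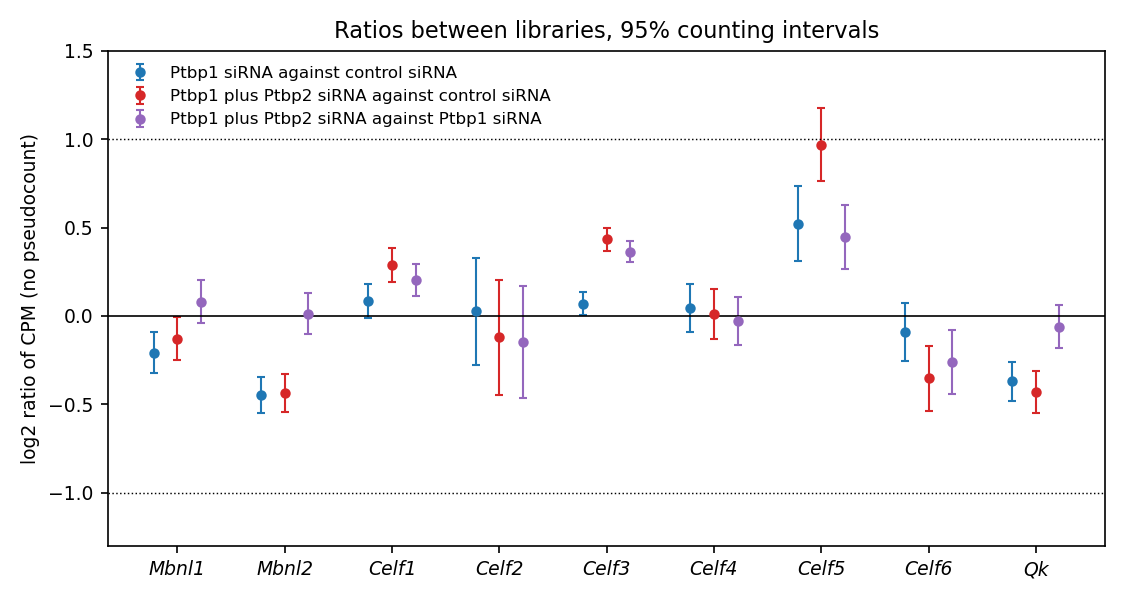
Ratio of CPM between libraries for the 9 members tested, on a log2 axis without a pseudocount, with 95% counting intervals and dotted lines at 2-fold. Celf5 lies highest, at 1.96-fold above the control in the double knockdown, while Mbnl2 and Qk lie below the control in both knockdown libraries and near 0 between them.

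These differences were counted beside those of all genes. In the Ptbp1 knockdown the counting interval lay above 1 for 2 of 9 members and below 1 for 3, against 21.1% and 26.3% of all genes tested. In the double knockdown it lay above 1 for 3 and below 1 for 4, against 29.0% and 32.3%. Between the knockdown libraries it lay above 1 for 3 and below 1 for 1, against 22.3% and 22.5%. Differences above 0 were found for 5, 4 and 5 of 9 members in these comparisons, against 48.4%, 48.7% and 49.2% of all genes. Over the 9 members the log2 differences had medians of 0.03, -0.11 and 0.01 in the same order, and over all genes tested -0.01, -0.01 and -0.005. Any pair of these comparisons has 1 library in common, the control for the first and second, so that their values are not independent.

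**Figure D3:**
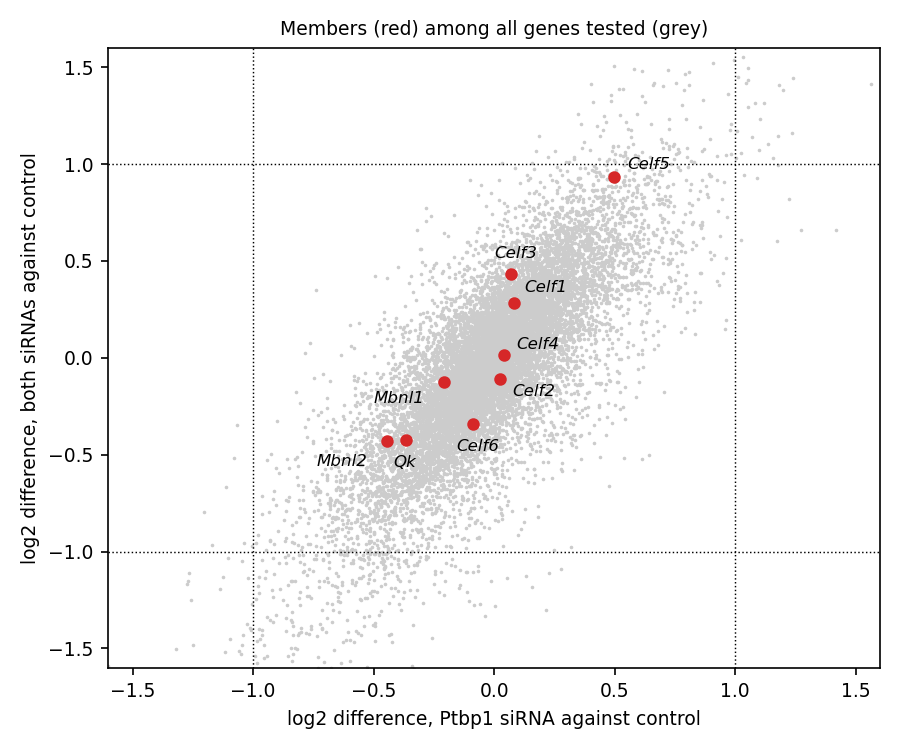
Log2(CPM + 1) difference from the control in the Ptbp1 knockdown (x axis) and in the double knockdown (y axis) for the 9 members (red) and 13146 genes tested in both pairs (grey), of which 56 lie outside the axes. Both axes use the same control library, which ties them to each other, and no member lies past the dotted 2-fold lines.

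Because levels per length can be added within a library, the makeup of each family was compared without any scaling between libraries. Mbnl2 held 58.2% of the summed Mbnl level in the control library, 54.2% in the Ptbp1 knockdown and 53.0% in the double knockdown, and Mbnl1 held nearly all of the rest. Celf3 held 52.9%, 53.0% and 57.8% of the summed Celf level and Celf1 23.0%, 23.3% and 22.8%. The share of Celf5 was 2.67%, 3.65% and 4.21%, and that of Celf6 11.4%, 10.2% and 7.24%. The summed Celf level, which unlike the shares uses the scaling between libraries, was 115, 120 and 142 CPM per kilobase. The summed Mbnl level, scaled likewise, was 21.4, 16.9 and 17.4. Their ratio, Celf over Mbnl, was thus 5.36 in the control library (approximate counting interval 5.13 to 5.60), 7.12 in the Ptbp1 knockdown (6.81 to 7.44) and 8.16 in the double knockdown (7.78 to 8.55). That is 1.33-fold (1.25 to 1.41) and 1.52-fold (1.43 to 1.62) above the control. The ratio mixes genes that went different ways, as Celf6 shows, and is dominated by Celf3 and Mbnl2. Shares, sums and ratio rest on the deposited lengths, and their values with annotated lengths were not tested.

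**Figure D4:**
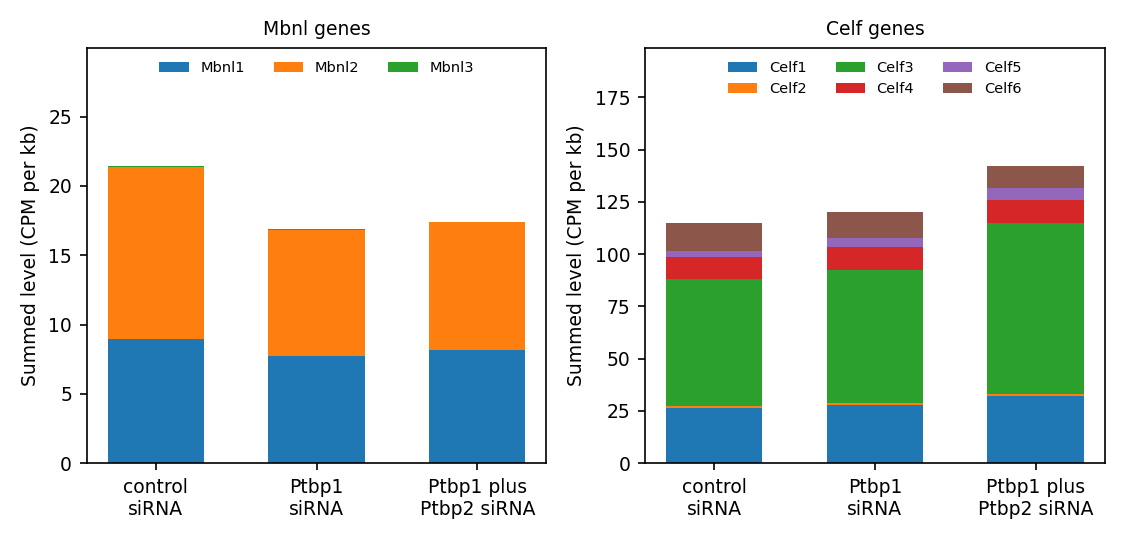
Summed level of the Mbnl genes (left) and Celf genes (right) in each library, in CPM per kilobase of exon scaled between libraries, stacked by gene. The Mbnl sum is 21.4 in the control library and 16.9 and 17.4 after the knockdowns, while the Celf sum goes from 115 to 120 and 142, most of it Celf3.

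The second Celf1 row covers 1820 bases downstream of the first (chr2:90857829-90859648, plus strand) after a gap of 617 bases counted in neither. By the GENCODE models for mm9 it lies wholly within the 3′ UTR of the Celf1 transcripts that end at position 90859654. Of the 8 protein-coding Celf1 models, 5 end there, 2 end at 90857208, next to the end of the first row, and 1 ends at 90855335. The last bases of the models that end at 90857208, at chr2:90857181-90857208, hold the letters of the poly(A) signal, AATAAA, at 2 places, shown in capitals, whose first bases are 28 and 16 bases from the end, both counted.
Celf1 inner end: AATAAAcaatgaAATAAAagatgtcact
AATAAA, searched on the gene's strand, was found in the last 40 bases of 39.4% of 44586 protein-coding transcript ends, and not in those of the other Celf1 ends. Such a match is a description of the sequence and does not show which end was used.

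The 3′ UTR row had 1015, 1353 and 1586 reads, or 66.5, 79.7 and 111 CPM. It was lowest in the control library and highest in the double knockdown. It was 1.20-fold above the control in the Ptbp1 knockdown (1.10 to 1.30) and 1.67-fold in the double knockdown (1.54 to 1.81), more than the first row in each case. Per kilobase, the 3′ UTR row stood at 1.38 times the first row in the control library (1.28 to 1.49), 1.56 times in the Ptbp1 knockdown (1.46 to 1.68) and 1.89 times in the double knockdown (1.77 to 2.02). The ratio of the rows was thus 1.13-fold higher than in the control in the Ptbp1 knockdown (1.02 to 1.26), 1.37-fold higher in the double knockdown (1.23 to 1.52), and 1.21-fold higher in the double knockdown than in the Ptbp1 knockdown (1.10 to 1.33). No scaling between libraries enters this ratio. In 29 genes that had 2 neighbouring rows of one name with enough reads, the interval of such a ratio lay above 1 in 13.8% in the Ptbp1 knockdown and in 27.6% in the double knockdown, and below 1 in 13.8% and 34.5%. These shares pool genes whose second row, the one with fewer reads, lies upstream of the first with genes where it lies downstream. In the double knockdown the second row lay downstream, as in Celf1, in every gene with an interval above 1. It lay upstream in every gene with an interval below 1 except Mef2d. In the Ptbp1 knockdown both positions occurred above and below 1. The cause was not tested. Celf1 is 1 of the 29 genes, and nothing particular to it is read from its ratio. Summed over both rows, Celf1 was 1.11-fold (1.06 to 1.17) and 1.39-fold (1.32 to 1.46) above the control.

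**Figure D5:**
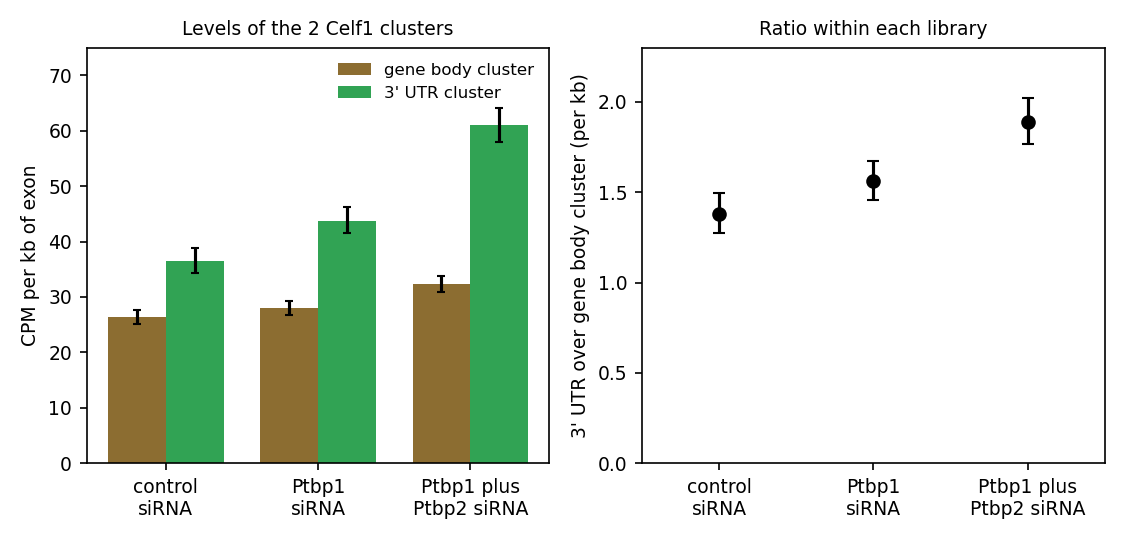
Left, level of the 2 Celf1 rows in each library in CPM per kilobase of exon, with bars from 0 and 95% counting intervals. Right, ratio of the 3′ UTR row to the first row in each library with its exact counting interval, which goes from 1.38 in the control library to 1.56 and 1.89. The first row is labelled gene body, although it extends to the inner 3′ end and so holds 3′ UTR as well.

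Of 33 other tissue-restricted splicing regulators, 32 were matched and 26 tested in the Ptbp1 knockdown and 25 in the double knockdown. Rbfox1 was the 1 gene called in each comparison with the control, higher in both, where 0.738% and 3.78% of all genes tested were called in either direction. For this list 0.00 was the median log2 difference of the Ptbp1 knockdown, with 13 of 26 above 0, and 0.15 that of the double knockdown, with 18 of 25 above 0. Over all genes the medians were -0.01 in each, and 48.4% and 48.7% were above 0. Rbfox1, the neuronal Fox-1 gene, listed as A2bp1, had 38, 160 and 187 reads and log2 differences of 1.58 and 2.01 from the control. Rbm20, a regulator of titin splicing in heart, had 405, 355 and 229 reads and a difference of -0.69 in the double knockdown. Rbm24, a muscle splicing factor, was at -0.63 (183, 141 and 106 reads), and Nova1, of neurons, at 0.61 (516, 706 and 743 reads).

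Total read values per gene do not show exon inclusion, so transcripts known to carry exons controlled by Mbnl or Celf proteins were described by level alone. Of 28 such genes 20 were tested in the double knockdown and 0 were called, against 3.78% of all genes tested, so that this count says nothing about the list. Their median log2 difference was -0.15, and 5 of 20 were above 0, against a median of -0.01 and 48.7% above 0 over all genes. Clcn1, the muscle chloride channel gene with a well-known muscleblind-controlled exon, was at 0.86 on only 2, 16 and 15 reads. Nfix was at -0.74 (256, 272 and 138 reads), Insr, the insulin receptor gene, at -0.73 (1600, 1007 and 895 reads), and Tnnt3, the fast troponin T gene, at -0.66 on 19, 22 and 6 reads. Mapt, the tau gene, was at -0.63 with 1813, 1557 and 1092 reads. In the Ptbp1 knockdown 19 were tested and 0 called, against 0.738% of all genes, with a median of -0.06.

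Of 10 transcripts known to be bound by Quaking, 6 were tested in the double knockdown, 0 were called and 2 were above 0, with a median of -0.10. Over all genes tested 3.78% were called and 48.7% were above 0, with a median of -0.01. Cdkn1b, which encodes a cell-cycle inhibitor, had 3799, 3264 and 2522 reads and was at -0.49. Hnrnpa1, which encodes a broadly expressed splicing repressor, had 4714, 4933 and 3621 reads and was at -0.28. Of 10 transcripts known to be bound by Celf proteins for decay or translation, 6 were tested in the double knockdown, 0 were called and 2 were above 0, with a median of -0.20, beside the same 3.78%, 48.7% and -0.01 over all genes. In it Cebpb, a transcription factor gene, was at 0.43 on 54, 85 and 73 reads, and Cdkn1a, a further cell-cycle inhibitor gene, at -0.41 on 1193, 1655 and 838 reads. Fos, an immediate early gene, was at -0.39 with 598, 637 and 425 reads. Jun, an mRNA with a GU-rich decay element, was at 0.26 with 1131, 1352 and 1266 reads.

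By the distance between the 2 differences from the control, over 3 libraries and 9795 genes, the genes most like Celf5 were Chchd4 (480, 769 and 874 reads), Stac (356, 560 and 657 reads) and Rpf2 (828, 1289 and 1505 reads). Their log2 differences were 0.51 and 0.94 for Chchd4, 0.48 and 0.95 for Stac and 0.48 and 0.95 for Rpf2, at distances of 0.015, 0.024 and 0.025. With so many genes set against 2 values each, a small distance says little.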

How the data were processed

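The deposited table gives, per the file headers, a whole-number read value, an exonic length and an RPKM value for 27389 gene clusters of the mm9 build, which the submitters' processing notes also name. For the aligner, the counter and the gene set, names are not given in the sources used here. Read values as deposited are net numbers, since 38 clusters fall below 0 (lowest -65) for a reason no header gives. These and 127 clusters without a length were left out, and the rest were treated as counts, a step beyond the plan, which assumed plain counts or normalized values. Per the labels' protocols, poly(A)+ RNA was fragmented, copied with random primers, sized at 350 bp within 50 bp, amplified over 15 cycles and read as paired 36-base ends.

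Clusters were named by alias and by position in GENCODE (overlap of at least 0.5 of the union), and of several with 1 name the highest mean was kept. Scaling factors between libraries came from a trimmed mean of M values (0.968, 1.02 and 1.01) with numpy 2.4.6. A level of 1 CPM stood for 15.3, 17.0 and 14.3 reads. Ratio intervals are exact conditional binomial at 95%, from scipy 1.17.1, and those of family ratios use a normal approximation. The calling rule was tested on simulated data that held counting error alone, so the spread between cultures and the effect of amplification were not covered. Other rules are given where they are first used. For pairs of clusters of 1 gene, each needed 300 reads over the libraries and a gap of at most 20 kb. The genes named were the 10 members, the targeted genes, up to 4 of each list by size of the difference in the double knockdown, called genes, and the 3 most like Celf5 among genes of at least 10 CPM. A gene that this rule names is not reported here. Mapt and the marker genes named were chosen after their values were seen. The members and lists were chosen with earlier results of these data known. Alternatives were pseudocounts, filters, scalings, size limits, summed clusters and the authors' deposited RPKM values.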

Additional observations from a re-analysis of the deposited data

How the results depend on the processing

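No paired analysis was possible because each group is 1 library. No member was called under any alternative tried, in any pair, except that a limit of 1.5-fold called Celf5 in the double knockdown, which makes 1 in place of 0. Of 210 member differences recomputed, 202 stayed within their counting interval and 8 moved beyond it. Among the former, that of Mbnl3 in the Ptbp1 knockdown went from 0.06 to 0.00 under quantile scaling, on 2 and 3 reads. Summed clusters took Celf1 from 0.28 to 0.47 in the double knockdown, and the deposited RPKM took Mbnl2 from -0.43 to -0.32. With RPKM the added 1 and the filter of 1 were applied to values per length, without the scaling factors, so that the scale differs from that of CPM. The share of Celf3 in the summed Celf level of the control library moved from 52.9% to 49.8% without division by length, and to 51.5% with summed clusters. With summed clusters, chosen after seeing the data, Celf over Mbnl was 5.50, 7.40 and 8.66.

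Counts over all genes also depended on the settings. A count among 9 members is too small to be set against them. The pairs are given in the order Ptbp1 knockdown against control, double knockdown against control, and double against Ptbp1 knockdown, with 98, 503 and 60 genes called. A pseudocount of 0.1 CPM gave 304, 880 and 256, a pseudocount of 5 CPM gave 30, 224 and 10, a limit of 1.5-fold gave 860, 2301 and 725, a limit of 3-fold gave 9, 58 and 2, and the deposited RPKM gave 48, 250 and 26. A filter of 5 CPM gave 38 in the last pair. Library-total scaling gave 51.0% of calls higher in the first pair and 40.3% in the second, against 37.8% and 28.2%. Mbnl3, at 3 reads or fewer in each library, was too shallow for any fold. The cause of these shifts was not tested.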

Other observations

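Near Celf5, 2 genes on the same strand of chromosome 10 also had more reads after the knockdowns, on few reads. S1pr4, a receptor gene of blood cells, had 16, 34 and 35 reads in the order control, Ptbp1 knockdown, double knockdown, a ratio of 2.34 between the last and the control (1.26 to 4.52). Gna15, a G protein gene, had 18, 40 and 41 reads, a ratio of 2.43 (1.37 to 4.50). Ncln, which lies between them and Celf5, had 2716, 3123 and 2372 reads and a ratio of 0.934 (0.883 to 0.987), below the control. Next to Celf6, Hexa, the gene of a lysosomal hexosaminidase subunit, had 2204, 1851 and 1255 reads and a ratio of 0.609 (0.567 to 0.653) in the double knockdown, while Parp6 on the other side had 1717, 2065 and 1595 reads and a ratio of 0.993 (0.927 to 1.06). These neighbours within 20 kb were named after their values were seen.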
